A study of Caenorhabditis elegans with 12 samples.

Results

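The col genes of Caenorhabditis elegans form the largest group of its cuticle collagen genes. The count table held 156 protein-coding genes whose symbol starts with col-, among 46748 genes in all. The 69 of them with a mean of at least 1 CPM (reads scaled to the size of their library) over the 12 libraries are described here. Within the family the rule used level alone and no comparison between groups. The family itself was chosen with earlier results of these data known. The 3 members closest to the minimum were col-53 at 1.15 CPM, col-81 at 1.09 CPM and col-68 at 1.05 CPM. The 3 genes just below it were col-111 at 0.994 CPM, col-130 at 0.928 CPM and col-113 at 0.848 CPM. Of the 87 col genes left out, 2 had no count in any library and 34 still had enough counts to be tested. All 69 members passed the filter on low counts that defined the 14567 tested genes.

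RNA was measured in whole worms of the strain N2, hermaphrodites of an age of 1 day or 2 days, with no statement in the labels of the event from which days were counted. The worms carried no mutation named in the labels and differed in the RNAi vector, either L4440, the empty vector, or bcat-1, a vector against the gene for a branched-chain amino acid aminotransferase. Each of the 4 groups (L4440 day 1, bcat-1 day 1, L4440 day 2 and bcat-1 day 2) had 3 libraries. The 2 vectors are called foods here, since in feeding RNAi, the common way to use such vectors, worms eat the bacteria that carry them. The labels do not say whether libraries came from separate cultures, so p-values measure only the spread between these samples, which may be technical. Library numbers follow accession order, name a library and pair nothing.

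The worm's cuticle is a layered coat built mostly of small collagens, which the epidermis underneath secretes. A new cuticle is made before each moult, and its collagen genes are switched on in waves during that time. The adult cuticle is laid down at the last moult, and some collagen genes, such as col-19, are used for it and not for larval cuticles. Other collagens of the coat have names from their mutant shapes (dpy for dumpy, sqt for squat, rol for roller), and 6 of these form the furrows that ring the body. For most col genes no individual role is known.

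The libraries held 29291731 to 43855795 counts each. The target of the RNAi was read first. bcat-1 stood at 156 to 179 CPM in the L4440 day 1 libraries, 116 to 157 CPM on L4440 at day 2 and 18 to 27.1 CPM in the bcat-1 day 1 libraries. In the bcat-1 day 2 group, replicate 1 had 13.9 CPM, replicate 2 had 17.3 CPM and the third 329 CPM. The library labelled bcat-1 day 2 replicate 3 therefore goes against its label, and ribosomal RNA made up 41.5% of its counts, against 0.0724% to 6.74% in the other 11. The counts of members called with age and in the day 2 RNAi comparison are given with and without it. So are the results of some genes. The other values, among them the ranges and the counts of wide members, include it. In these libraries of whole worms, fewer cells of a type and less RNA per cell cannot be told apart. The kit does not mark strand, and 17 of the 69 members share exon bases with another gene. The share was over 10% of the member's exon length for 2 of them, col-116 with 27.1% and col-147 with 19.4%. Collagens resemble each other, and how reads that map to several genes were counted is not given in the sources used here.

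The members divided into 3 sets of different behaviour. With age, 29 members were lower at day 2 than at day 1. A further 21 were not lower and differed by at least 4-fold between libraries of one food at day 2. The remaining 19 did neither. Lower here means an adjusted p under 0.05 for the difference between days, averaged over both foods, in edgeR's quasi-likelihood test. The spread was read as the difference between the highest and lowest of the 3 libraries of a food on the log2 CPM scale, and 2 or more on either food at day 2 was called wide. The widest range among members below it was 1.90, and the narrowest above it 2.26.

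**Figure D1:**
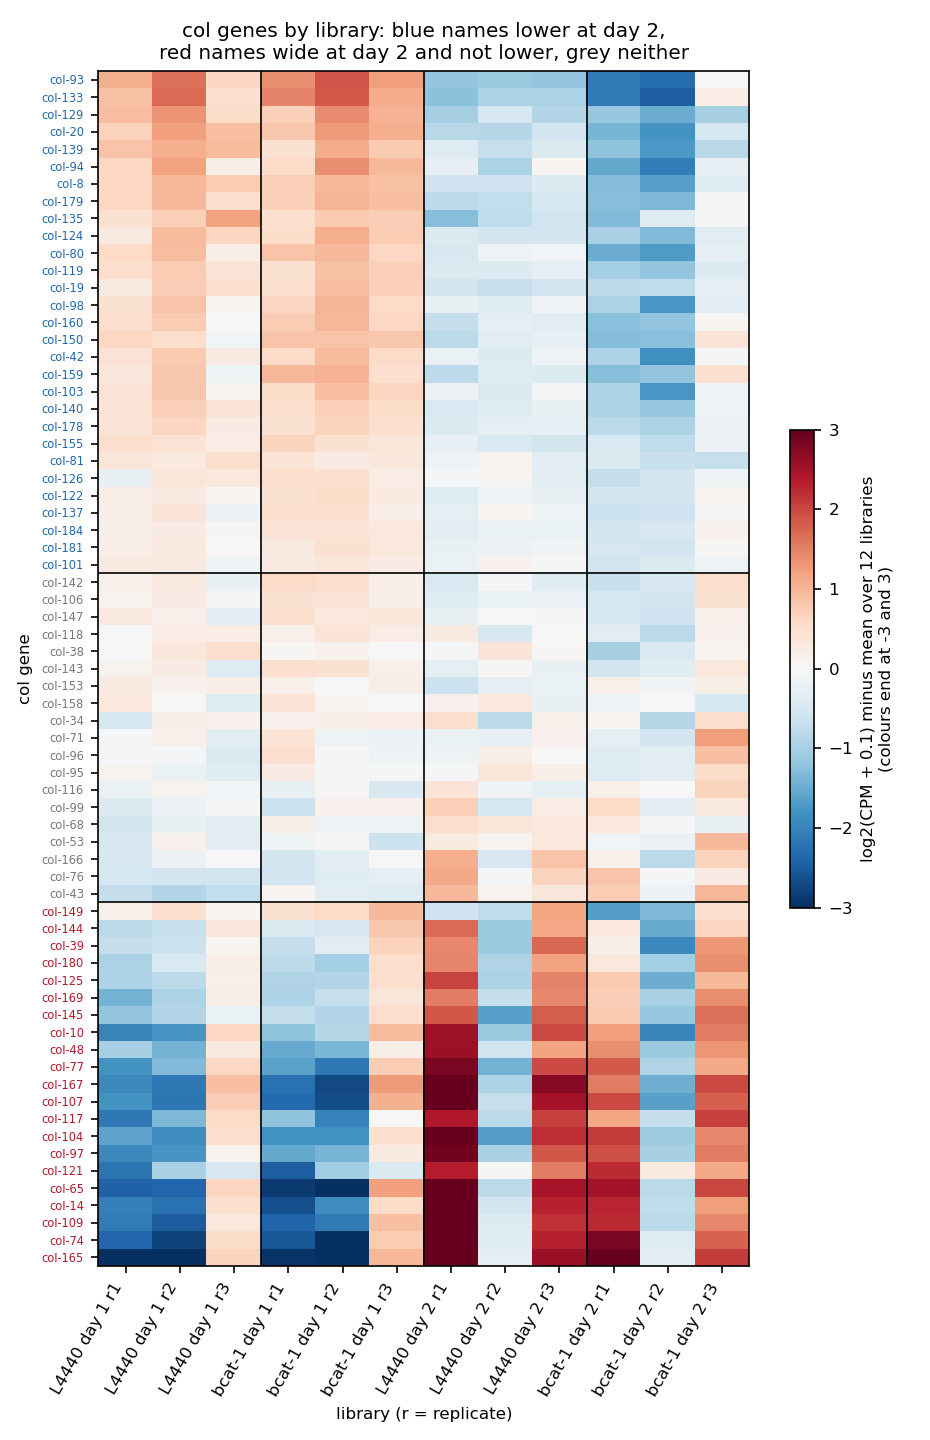
Level of each of the 69 col genes (rows) in the 12 libraries (columns), as log2(CPM + 0.1) minus the gene's mean over the libraries, with red above and blue below that mean and colours ending at -3 and 3. The 29 genes with blue names are lower at day 2 on average. For 20 of them every day 2 column lies below every day 1 column. The 21 with red names change between columns of the same group.

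The set that fell with age held most of the abundant collagens. Its summed level was 6162, 7441 and 5689 CPM in the L4440 day 1 libraries and 6740, 8070 and 6932 CPM in the bcat-1 day 1 libraries. At day 2 it was 3501, 3771 and 3931 CPM on L4440, and 2618, 2425 and 4292 CPM in the libraries labelled bcat-1. Every day 2 sum lay below every day 1 sum. The highest day 2 value belonged to the library labelled bcat-1 day 2 replicate 3. All 69 members together went from 7060 to 9931 CPM over the day 1 libraries to 3602 to 6564 CPM over the day 2 libraries, again with no overlap.

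Per length of exon, col-106 was the most abundant member at 664 CPM per kb. It was followed by col-181 at 636, col-119 at 567, col-140 at 559, col-95 at 483 and col-122 at 470 CPM per kb. The median member stood at 5.32 CPM per kb and the lowest at 0.837 CPM per kb. Of those 6 abundant genes, col-181, col-119, col-140 and col-122 fell with age, while col-106 and col-95 did not pass the test. As levels, col-119 went from a mean of 659 ± 88.8 CPM on L4440 at day 1 to 345 ± 22.6 CPM at day 2 (SD, n = 3 each).

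Among all tested genes 5.57% were called lower at day 2, and 29 of the 69 members were. Called higher were 8.86% of all tested genes and 4 members. The median change of the 29 was -1.17 on the log2 scale, with a range from -2.48 to -0.42, while the median of all tested genes was -0.01. These 29 were picked by that test, so their median describes them and tests nothing. For 3 of them, col-129, col-139 and col-81, the day 2 mean was under 1 CPM, so they were members only through their day 1 levels. A stricter reading asks that all 6 day 2 libraries lie below all 6 day 1 libraries, which 20 members met, against 3.66% of all tested genes. The reverse order held for 2 members, against 3.27%.

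The adult collagen col-19 was measured at 200, 277 and 231 CPM on L4440 at day 1 and at 231, 313 and 270 CPM in the bcat-1 day 1 libraries. At day 2 the L4440 libraries had 112, 102 and 111 CPM, and those labelled bcat-1 had 96.4, 96.6 and 140 CPM. All 6 day 2 values were below all 6 day 1 values. Its level fell by 1.21 on the log2 scale (SE 0.12), a 2.31-fold decrease, with an adjusted p of 0.000103 in edgeR's quasi-likelihood test with Benjamini-Hochberg adjustment.

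The largest fall was that of col-93, on chromosome III at 10984552 to 10985609 (WBcel235). Its levels were 190, 285 and 143 CPM on L4440 and 240, 337 and 218 CPM on bcat-1 at day 1. At day 2 the L4440 libraries were close together at 39.9, 42.2 and 40.9 CPM, and the libraries labelled bcat-1 read 20.8, 18.2 and 90.5 CPM. The day 2 libraries did not reach the day 1 range, and the 90.5 CPM belonged to the library whose bcat-1 level goes against its label. The decrease was 5.59-fold (log2 -2.48, SE 0.37, edgeR adjusted p 0.00146), and without that library the log2 difference was -3.07 (SE 0.19).

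col-133, on chromosome IV, followed the same course at a lower level. Its 6 day 1 values ran from 21.1 to 54.1 CPM. On L4440 at day 2 it was at 6.3, 7.65 and 7.73 CPM, and in the libraries labelled bcat-1 at 3.37, 2.59 and 17.4 CPM. The groups of the 2 ages did not overlap, with a 5.10-fold decrease (log2 -2.35, SE 0.42, edgeR adjusted p 0.00414), and without the third bcat-1 library the log2 difference was -3.03 (SE 0.24).

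Both genes were also counted as wide at day 2, and in both the width came from a single library. On L4440 the highest day 2 value of col-93 was 1.06 times the lowest, and that of col-133 was 1.23 times. In the libraries labelled bcat-1 the ratios were 4.97 and 6.71, with the library labelled replicate 3 on top. Every member called lower was placed in the falling set whatever its width, and so were col-93 and col-133. Over all tested genes, 0.0412% were both lower with age and wide at day 2.

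col-20 and col-8 were the most abundant of the other large falls. col-20 stood at 371, 536 and 428 CPM on L4440 and 400, 559 and 487 CPM on bcat-1 at day 1, then at 129, 127 and 155 CPM on L4440 and 86.9, 66.1 and 159 CPM in the libraries labelled bcat-1 at day 2. No day 2 library came near a day 1 library. The decrease was 3.89-fold (log2 -1.96, SE 0.19, edgeR adjusted p 0.000105).

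col-8 went from 443 to 573 CPM over the 6 day 1 libraries to 92.5 to 222 CPM over the 6 day 2 libraries, a 3.04-fold decrease (log2 -1.61, SE 0.18). col-179 went from 77.2 to 111 CPM to 21.5 to 52.2 CPM, a 2.89-fold decrease (log2 -1.53, SE 0.20). The ages did not overlap in either gene, and both passed edgeR's quasi-likelihood test with adjusted p of 0.000259 and 0.000687.

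The 3 other genes with large falls were expressed at a few CPM. col-129 was at 2.45 to 4.53 CPM at day 1 and 0.523 to 1.12 CPM at day 2, a log2 difference of -2.16 (SE 0.20). col-139 was at 2.4 to 3.86 CPM and then 0.455 to 1.29 CPM, a log2 difference of -1.87 (SE 0.18). In both the ages were apart. col-94, the neighbour of col-93 on chromosome III, was at 2.70 to 6.27 CPM and then 0.477 to 2.44 CPM (log2 -1.69, SE 0.33), also without overlap.

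At the other end of the set were abundant genes with small changes. col-101 had the smallest range over the 12 libraries among members with a mean of at least 10 CPM, from 262 to 492 CPM. Its log2 difference with age was -0.42 (SE 0.09, edgeR adjusted p 0.0136), and the ages overlapped. col-181 lay between 468 and 949 CPM (log2 -0.50, SE 0.10) and col-184 between 214 and 428 CPM (log2 -0.53, SE 0.11). Both were called, and in both the library labelled bcat-1 day 2 replicate 3 gave the highest day 2 value, 712 and 347 CPM.

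The fall was also seen within each food. Both comparisons came from the fit of all libraries, whose groups share an estimate of the spread, so neither food was fitted by itself. On L4440, 12 members were called lower (1.29% of tested genes) and 2 higher (1.01%). In the libraries labelled bcat-1, 25 were called lower (2.06%) and 0 higher, against 2.01% of tested genes called higher. Of the 29 falling members, 11 were called on both foods, among them col-19, col-20, col-8, col-119, col-129, col-139, col-179 and col-93. Fitted on the compared groups alone, fewer members were called for bcat-1, as given in the last section. The call on L4440 depended on the scaling: with library size alone 12 were lower and 0 higher, and with upper-quartile factors 7 and 0. Whether the age effect differed between foods was tested directly, and 0 members were called (0 of all tested genes). The difference had an unadjusted p under 0.05 for 6 members and for 385 of the tested genes. The same count of members called was 0 in DESeq2 and limma-voom.

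Without the library labelled bcat-1 day 2 replicate 3, 35 members were called lower with age (8.3% of tested genes) and 4 higher (9.21%). The 29 falling members were all called there, and the additional 6 were col-106, col-142, col-143, col-147, col-118 and col-149. col-106, the most abundant member per length, changed by -0.42 (SE 0.16, edgeR adjusted p 0.101) in all libraries and by -0.65 (SE 0.08, adjusted p 0.000296) without that one. Its levels in the 3 libraries labelled bcat-1 at day 2 were 400, 391 and 793 CPM. All day 2 libraries lay below all day 1 libraries for 27 members then (5.75% of tested genes) and above them for 2 (4.43%). On L4440, 19 members were called lower (2.36%) and 2 higher (1.5%) in that fit, and on bcat-1 34 lower (2.77%) and 0 higher (1.61%).

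**Figure D2:**
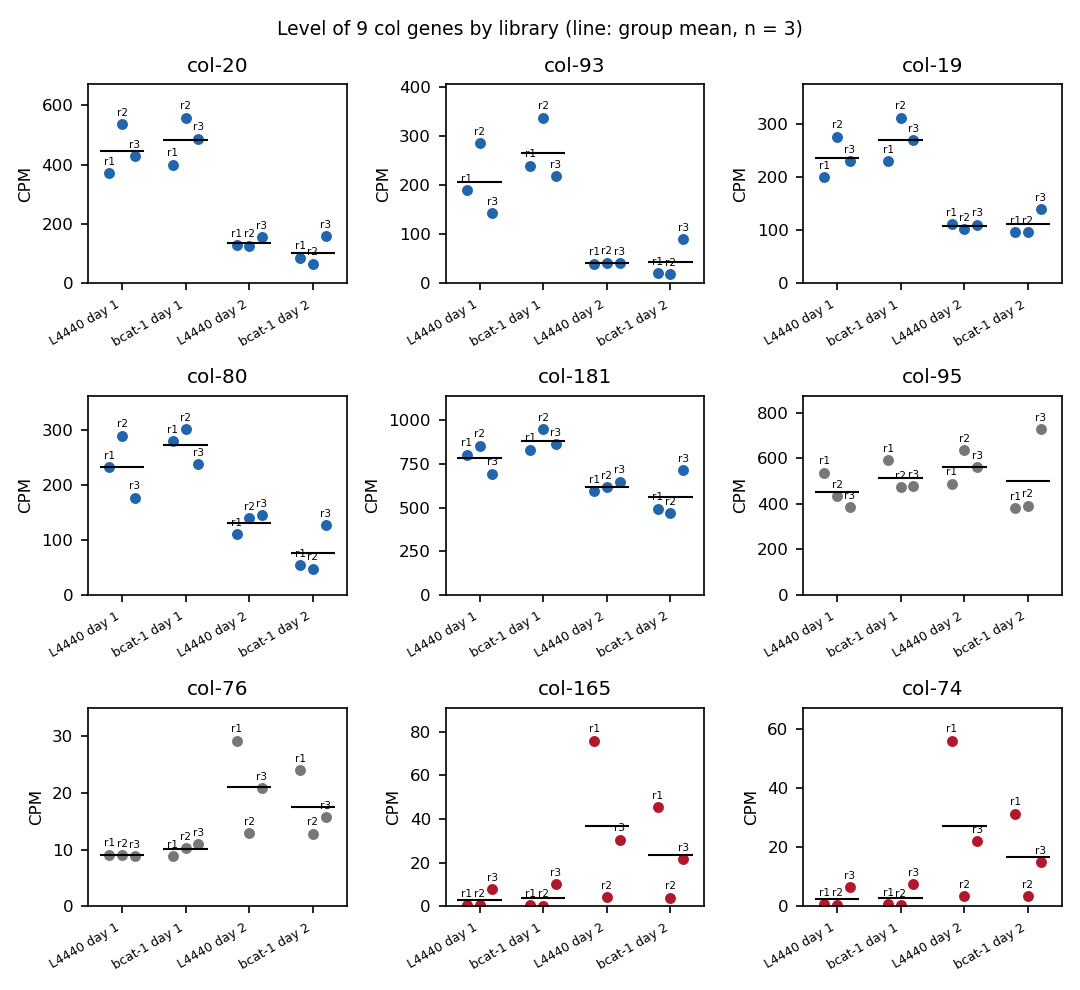
Level in CPM (vertical axes start at 0) of 9 col genes in the 12 libraries, with points marked by library number and lines at group means (n = 3). col-20, col-93 and col-19 are lower in all day 2 libraries, col-95 shows no such step, and col-165 and col-74 are low in the second library of each food at day 2 and high in the first.

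The library labelled bcat-1 day 2 replicate 3 was the highest of its group for 28 of the 29 falling members, against 36.2% of all tested genes. The same held for 15 of the 19 members that did neither and for 10 of the 21 wide ones. The CPM values carry TMM scaling, and this library had the lowest scaling factor, 0.665 against 0.987 to 1.12 in the others. As a share of all its counts, the 69 members took 0.437% there, 0.439% in bcat-1 day 2 replicate 1 and 0.382% in replicate 2. These totals include ribosomal RNA, at 41.5%, 0.2% and 0.223% of the counts in the same order. The shares are therefore not on a like base, and that of the library labelled replicate 3 is lowered by it. With ribosomal RNA genes left out of the library size, the counts of members called with age were unchanged at 29 lower and 4 higher. TMM scaling offsets most of such a change in library size, so these counts could hardly differ and decide nothing here. The part of its ribosomal RNA in its place among the day 2 libraries was not tested.

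A different pattern was seen in the 21 members that were wide at day 2 and not lower with age. Their summed level was 13.4, 16 and 54.3 CPM on L4440 and 14.9, 15.6 and 68.0 CPM on bcat-1 at day 1. At day 2 it was 309, 25.1 and 167 CPM on L4440 and 164, 22.5 and 122 CPM in the libraries labelled bcat-1. Replicate 2 was low on both foods at day 2, and replicate 3 was high on both foods at day 1. The ages overlapped, since both day 1 replicates 3 lay above both day 2 replicates 2.

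**Figure D3:**
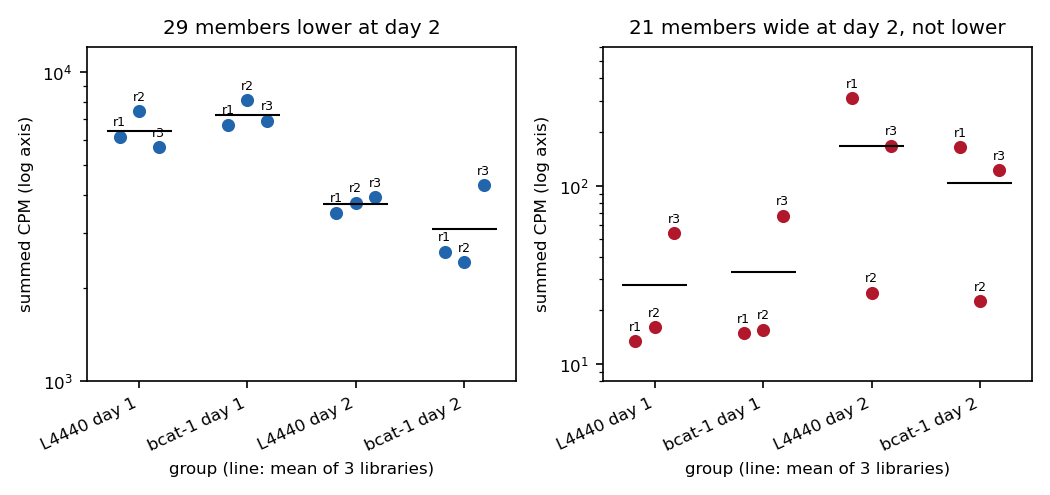
Summed CPM (log axes) of the 29 members lower at day 2 and of the 21 wide members, in each library (r1 to r3) with lines at group means. The falling set steps down between days in every library, from 5689 CPM or more to 4292 CPM or less, while the wide set ranges from 25.1 to 309 CPM within L4440 day 2.

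At day 2, 23 members were wide against 5.44% of all tested genes, 20 of them on both foods. At day 1, 13 members were wide, against 1.83%, and all 13 were also wide at day 2. The members' median range at day 2 was 1.31 on the log2 scale, and that of all tested genes 0.62. Wide genes of the whole table shared much of the order of libraries. Replicate 2 was the lowest on both foods at day 2 for 20 of the 21 members, or 95.2%. The same held for 76.5% of the 793 wide genes and for 22.3% of all tested genes. At day 1, whose range within a food was not used to call a gene wide, replicate 3 was the highest on both foods for 20 of them, against 64.3% of the wide genes and 15.7% of all tested genes.

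col-165 had the widest day 2 range among members with a mean of at least 10 CPM. It was at 75.9, 4.08 and 30.5 CPM on L4440 and 45.6, 4.00 and 21.6 CPM in the libraries labelled bcat-1 at day 2. At day 1 it was at 0.453, 0.508 and 7.94 CPM and at 0.561, 0.319 and 10.0 CPM. The highest L4440 day 2 library held 18.6 times the level of the lowest. The mean change with age was 3.22 on the log2 scale with an SE of 1.03, and it did not pass edgeR's test (adjusted p 0.0575).

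col-74 behaved likewise, with 56, 3.36 and 22 CPM on L4440 and 31.3, 3.34 and 15 CPM in the libraries labelled bcat-1 at day 2. Its day 1 values were 0.762, 0.552 and 6.50 CPM, then 0.663, 0.319 and 7.50 CPM. The age difference of 3.01 (SE 0.94) had an edgeR adjusted p of 0.0519. Some 9.05% of its exon length lies on the other strand of gtap-1, so part of its reads could belong to that gene.

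The other 19 had means of 1.16 to 6.33 CPM. col-65, col-107, col-14, col-10, col-104, col-77, col-167, col-109, col-117, col-145, col-48, col-39, col-125, col-144, col-180 and col-169 shared the low second libraries at day 2. col-107 gives an example, with 17.6, 1.09 and 10.8 CPM on L4440 and 7.53, 0.523 and 6.58 CPM in the libraries labelled bcat-1. col-149 was the exception among the 21. It was the only one with a negative age difference (log2 -0.74, SE 0.45), and its high day 2 libraries were the third ones, at 2.71 and 1.63 CPM, with the others between 0.297 and 0.710 CPM.

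Of the 21, 9 had a mean under 1 CPM over the 6 day 1 libraries, and so were members only through their day 2 levels. These include col-97, one of the 2 called higher, and the choice by level favoured a positive age difference in them. The number of members called higher in the whole family depended on single libraries. It was 4 with all libraries. Leaving out replicate 2 of L4440 at day 2 raised it to 17, and leaving out replicate 2 of bcat-1 at day 2 raised it to 13. It was 11 when replicate 3 of either food at day 1 was left out, and 3 or 4 with any other library left out. DESeq2 called 12 higher, limma-voom 3, and edgeR with no filter on low counts 16.

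**Figure D4:**
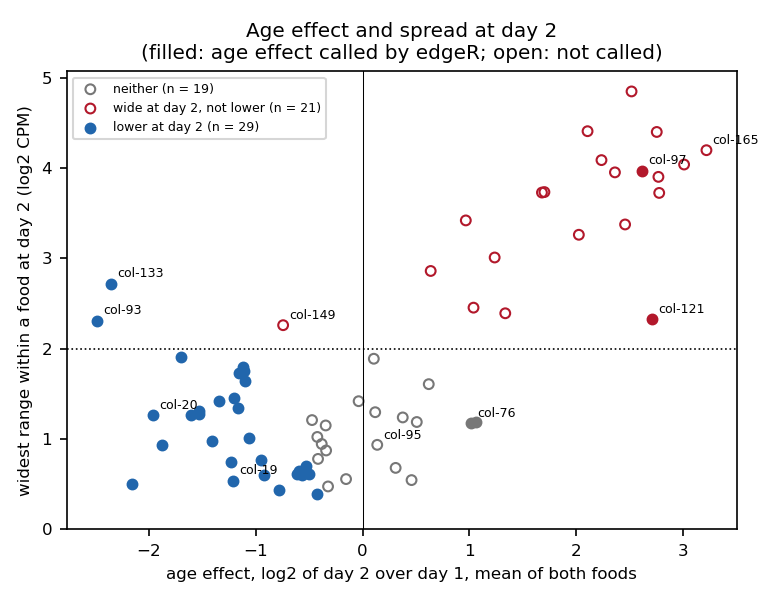
Change with age of each col gene (horizontal axis, log2 of day 2 over day 1, mean of both foods) against its widest range within a food at day 2 (vertical axis, log2 CPM), with the bound for wide at 2 as a dotted line and filled points where edgeR called the age effect. Of the 23 points above the line, col-93, col-133 and col-149 have a negative change.

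The 4 members called higher with age were col-121, col-97, col-43 and col-76. col-121 was at 0.524, 1.35 and 1.91 CPM on L4440 and 0.408, 1.28 and 2.01 CPM on bcat-1 at day 1. At day 2 it was at 14.3, 2.81 and 8.07 CPM and at 13.3, 3.39 and 6.12 CPM. Here every day 2 library lay above every day 1 library, although the second libraries were again the lowest. The log2 difference was 2.70 (SE 0.52, edgeR adjusted p 0.00633). col-121 shares 8.95% of its exon length with daf-15 on the other strand, and the summed counts were 89767 for daf-15 and 2049 for col-121.

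col-43 and col-76 rose and were not wide. col-76 was steady at day 1, with 9.10, 9.04 and 8.85 CPM on L4440 and 8.84, 10.3 and 11.0 CPM on bcat-1. At day 2 it was at 29.2, 12.9 and 20.9 CPM and at 23.9, 12.8 and 15.7 CPM. Its ages did not overlap, with a log2 difference of 1.01 (SE 0.19, edgeR adjusted p 0.00639). col-43 was at 5.88 to 11.5 CPM at day 1 and 9.61 to 22 CPM at day 2 (log2 1.06, SE 0.21, adjusted p 0.00674), and its ages overlapped. col-97 was at 0.167 to 1.14 CPM and then at 0.409 to 7.45 CPM (log2 2.61, SE 0.76, edgeR adjusted p 0.0391). It kept its call in only 5 of the 12 fits with 1 library left out, while the other 3 kept theirs in all 12. It also lost the call in limma-voom and with library size alone.

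Among the 19 members that did neither, col-95 was the flattest. It was at 537, 433 and 385 CPM on L4440 and 593, 475 and 480 CPM on bcat-1 at day 1, and at 490, 637 and 563 CPM and 382, 393 and 729 CPM at day 2. All groups overlapped. Its log2 difference with age was 0.14 (SE 0.16, adjusted p 0.64), and -0.070 without the library labelled bcat-1 day 2 replicate 3. col-99, a collagen that spans the membrane and is found in neurons, was in the same set at 5.15 to 13.2 CPM over the 12 libraries, with a log2 difference of 0.38 (SE 0.23). The 19 include col-43 and col-76, which were called higher. For the others the chosen threshold says only that they missed the test, not that they stayed the same.

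The food comparison gave 0 members called at day 1, as it gave 0 of all 14567 tested genes. None of the 69 had an unadjusted p under 0.05, and 297 of the tested genes did. DESeq2 and limma-voom also called 0 members. The members leaned one way, with 57 of 69 higher on bcat-1 at a median of 0.20 on the log2 scale. Members moved together between libraries, and replicate 2 was highest at day 1 on each food for 24 of the 29 falling ones. The 69 signs are therefore not separate observations, and 1 shifted library can move the whole count. Lower were 12 of the 69, against 46.0% of all tested genes. The groups did not overlap, with bcat-1 higher, for 6 members, against 5.85% of all tested genes, and with bcat-1 lower for 0, against 4.65%. The smallest p-values belonged to col-43, col-143, col-122 and col-68. col-43 was at 6.6, 5.88 and 6.56 CPM on L4440 and 11.5, 8.62 and 8.30 CPM on bcat-1, without overlap (log2 0.58, SE 0.29).

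At day 2 again 0 members were called, while 0.419% of all tested genes were. At an unadjusted p under 0.05 there were 7 members and 1051 of all tested genes, and DESeq2 and limma-voom called 0 members too. The lean was now the other way, with 54 of 69 members lower in the libraries labelled bcat-1, against 53.1% of all tested genes, and a median of -0.39. The median was -0.34 with upper-quartile factors and -0.55 with library size alone, a scaling that moved the median of all tested genes to -0.14. Here too the members moved together between libraries, so their signs are not separate observations. The smallest p-values were those of col-139, col-119, col-81 and col-153. The L4440 libraries held 1.29, 1.03 and 1.25 CPM of col-139, and those labelled bcat-1 held 0.693, 0.455 and 0.918 CPM. The 2 groups were apart (log2 -0.84, SE 0.27, edgeR adjusted p 0.374). col-153 went the other way, at 1.11, 1.45 and 1.56 CPM and then 2.01, 1.66 and 2.04 CPM (log2 0.47, SE 0.19, edgeR adjusted p 0.587).

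This comparison rests on the library whose target level goes against its label. Without it, 66 of the 69 members were lower on bcat-1, against 55.7% of tested genes, at a median of -0.71, and 3 were called lower, where 0.228% of tested genes were. The median of all tested genes was -0.02. An unadjusted p under 0.05 was reached by 32 members and by 812 of 14881 tested genes. The remaining 2 bcat-1 libraries lay below all 3 L4440 libraries in 38 members, against 6.98% of tested genes. With all libraries that number was 4, against 4.24%. The reverse order held for 1 member, col-153, both without that library (9.23% of tested genes) and with it (6.52%). Of the falling set, 27 of 29 were in the 38, but day 2 libraries on bcat-1 had helped to choose that set. Since members moved together between libraries, neither the 66 nor the 38 are separate observations.

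The 3 genes called without that library all belonged to the falling set. col-80 was at 111, 139 and 145 CPM on L4440, while the first bcat-1 libraries had 54.6 and 47.6 CPM and the one labelled replicate 3 had 127 CPM. Its log2 difference was -0.79 (SE 0.31, edgeR adjusted p 0.588) with all libraries and -1.39 (SE 0.20, adjusted p 0.0162) without the last. col-8 was at 185, 185 and 215 CPM on L4440, then at 117 and 92.5 CPM, and at 222 CPM in the library left out. Its difference changed from -0.44 (SE 0.25, adjusted p 0.759) to -0.92 (SE 0.14, adjusted p 0.0170). col-140 was at 350, 372 and 412 CPM, then at 250 and 217 CPM, and at 436 CPM in the library left out, with a difference of -0.33 (SE 0.21, adjusted p 0.764) with it and -0.71 (SE 0.13, adjusted p 0.0489) without it. In each gene the library left out was inside or above the L4440 range and the other bcat-1 libraries were below it. The adult collagen col-19 had the same order of libraries and a smaller difference that was not called, at 112, 102 and 111 CPM against 96.4 and 96.6 CPM (log2 -0.18, SE 0.14 without the library).

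**Figure D5:**
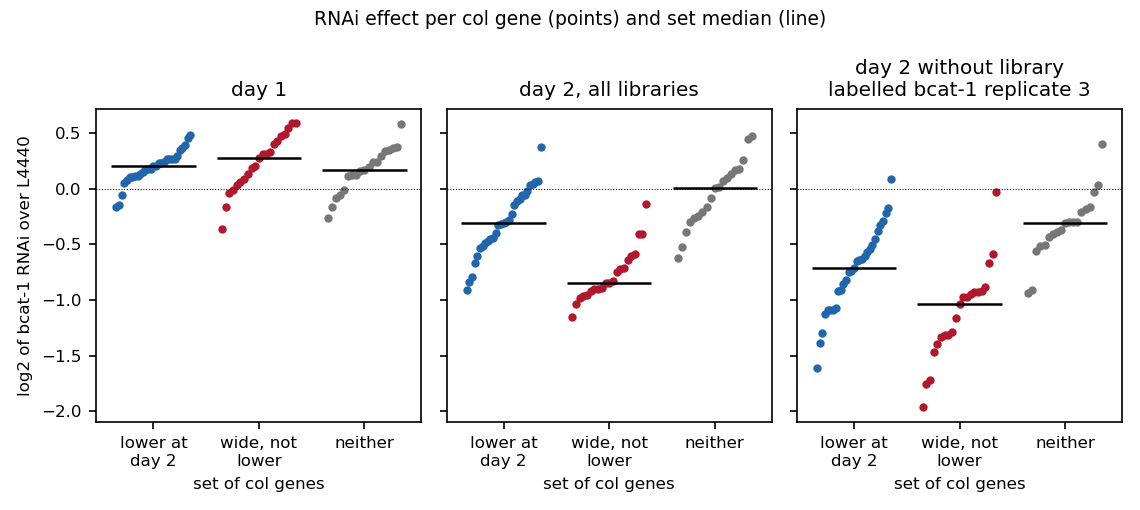
Difference between bcat-1 RNAi and L4440 for each col gene (points, log2 scale) in the 3 sets, with lines at set medians, at day 1, at day 2 with all libraries and at day 2 without the library labelled bcat-1 replicate 3. Over all members the median is 0.20 at day 1, -0.39 at day 2 and -0.71 in the last panel.

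The 2 RNAi effects were compared in 1 model. It is the same contrast as the difference of the age effect between foods given above, and not a second test. The difference between day 2 and day 1 was negative for 64 of 69 members, with a median of -0.49, against a median of -0.03 for all tested genes. It was negative for 65, with a median of -0.84, once the library labelled bcat-1 day 2 replicate 3 was left out. In neither case was a member called by edgeR (0 of all tested genes), and unadjusted p under 0.05 was found for 6 members (385 of 14567 tested genes) with it and 31 members (532 of 14881) without it. A change of the RNAi effect between ages was therefore not shown for any single col gene. The counts of negative differences come from genes that moved together between libraries and are not separate observations.

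The position of the members on the chromosomes was looked up in the annotation. Chromosome IV held 22 members, V 17, II and X 10 each, III 7 and I 3. The falling members numbered 10 on IV, 7 on V, 5 on X, 4 on III, 3 on II and 0 on I. Pairs of members within 10 kb of each other numbered 11, and 9 of these pairs had both genes in the same of the 3 sets. col-144, col-145 and col-10, next to each other on chromosome V, were all wide, and col-178 and col-179 on X both fell. In 2 pairs a falling gene sat beside a wide one. col-80 and col-39 lie 1182 bp apart on the same strand of chromosome II, and col-150 and col-149 lie 694 bp apart on V.

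Other genes of the cuticle served as a setting for the collagens. Of the 6 furrow collagens, which have no col name, 4 were called higher with age and 0 lower, and 3 were wide at day 2. Among all tested genes, 8.86% were called higher with age, 5.57% lower, and 5.44% were wide at day 2. dpy-7 was at 0.834, 1.70 and 3.52 CPM on L4440 and 0.790, 1.95 and 3.55 CPM on bcat-1 at day 1, and at 21, 4.36 and 13 CPM and 18.3, 4.48 and 8 CPM at day 2. Its day 2 libraries lay above the day 1 libraries, with the second ones lowest (log2 2.5, SE 0.52, edgeR adjusted p 0.0095).

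Among 14 tested collagens with other mutant names, 4 were higher (dpy-14, dpy-17, sqt-3 and lon-3), 0 were lower and 12 were wide. sqt-3 was at 7.29 to 29.3 CPM at day 1 and, in library order, at 164.99, 26.8 and 89.8 CPM and 134, 26.3 and 83.6 CPM at day 2 (log2 2.37, SE 0.52, edgeR adjusted p 0.0127). Its day 2 replicates 2 were within the day 1 range. Of 28 tested cuticlins, which are non-collagen proteins of the cuticle, 15 were higher, 0 lower and 10 wide. The cuticlins summed to 25.9, 31.9 and 45.9 CPM on L4440 and 31.6, 33.7 and 52.0 CPM on bcat-1 at day 1, and to 232, 43.0 and 109 CPM and 164, 44.0 and 88.3 CPM at day 2. Their low and high libraries were those of the wide col genes, and what the lists have in common was not tested. Of 39 genes of the moult cycle, 17 were higher, 1 was lower and 12 were wide. The shares over all tested genes were again 8.86% higher, 5.57% lower and 5.44% wide. None of the 4 lists had a call for the RNAi at either age. Of all tested genes, 0 were called at day 1 and 0.419% at day 2, so lists of this size would hold few calls or none.

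Of 20 tested genes for enzymes and other proteins that modify, cut and link collagens, 2 were higher (dpy-18, a subunit of the prolyl hydroxylase that modifies collagen chains, and skpo-2), 2 were lower (nas-37 and mlt-7) and 1 was wide. The shares over all tested genes were 8.86% higher, 5.57% lower and 5.44% wide. dpy-18 rose by 0.31 on the log2 scale (SE 0.08, edgeR adjusted p 0.0267). The 3 basement membrane collagens emb-9, let-2 and cle-1, which are made for the sheets under tissues and not for the cuticle, had 0 calls and 0 wide genes. Their age differences were -0.08, 0.16 and -0.06.

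The markers of the epidermis other than collagens had 0 calls with age among 7, and 0 wide genes. Of all tested genes 14.4% were called with age and 5.44% were wide, so 0 in so short a list says little. Their summed level was 261 to 312 CPM over the day 1 libraries and 258 to 413 CPM over the day 2 libraries. lin-29, which encodes the factor that switches on adult collagens such as col-19, had a log2 difference of -0.35 (SE 0.15, edgeR adjusted p 0.147). Of the 8 regulators of the adult cuticle listed, 1 was called, hbl-1, a factor of larval timing, which was higher (log2 2.04, SE 0.42, adjusted p 0.0089) and wide. Intestine, germline and neuron markers had 0 calls with age, and 2 of 3 body wall muscle markers, unc-54 and unc-15, fell by 0.41 and 0.43 on the log2 scale. The third, myo-3, had a difference of 0.65 (SE 0.27, edgeR adjusted p 0.136), with 94.99, 33.5 and 62.4 CPM on L4440 at day 2 and 29.8 to 36.8 CPM at day 1. The muscle list summed to 800 to 1087 CPM over the day 1 libraries and 587 to 941 CPM over the day 2 libraries. The sperm list was at or near 0, with msp-19 and msp-142 not tested. The part of any change in tissue share in the fall of the collagens was not tested.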

How the data were processed

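Poly(A) RNA of whole worms was sequenced from TruSeq RNA v2 libraries, per the labels' protocols. The submitters' processing notes name bcl2fastq 1.8.4, STAR 2.4.1d, featureCounts 1.4.6-p4 and the build WBcel235. The deposited table holds whole-number read counts per gene, not normalized by the authors. The authors' RPKM table was not used, because its values are not scaled to their own library. Symbols, lengths and positions came from Ensembl release 115 (WBcel235), which holds 46449 of the 46748 genes. Counts were filtered (filterByExpr), scaled (TMM) and fitted with 1 mean for each of the 4 groups, 8 residual degrees of freedom, in edgeR 4.0.16 (R 4.3.3) with quasi-likelihood tests and Benjamini-Hochberg adjustment over all tested genes. Ranges used a prior count of 2. Alternatives used limma 3.58.1, DESeq2 1.42.0, other scalings and filters, a tested fold of 1.5 and each library left out. The fit was tested on simulated data.

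Genes were named by rule: the 8 largest falls and up to 6 largest rises called with a mean of at least 2 CPM (3 qualified), the 4 smallest p in each RNAi comparison, the 8 widest and 4 flattest with a mean of at least 10 CPM, the 6 highest per kb, col-19, and up to 4 per comparison list. Genes named beyond that, among them col-80, col-140, col-97, col-149, col-99 and col-107, were chosen after their values were seen. The members and lists were chosen with earlier results of these data known. Sequences and near-identical pairs were not analysed here. CPM of 3 counts ranged from 0.0663 to 0.153 between libraries.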

Additional observations from a re-analysis of the deposited data

Results flagged for a closer look

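col-68 was flagged because its RNAi difference had opposite signs at the 2 ages, with separate groups at both. The direction was that of most of the family. On bcat-1, 57 of the 69 members were higher at day 1 and 54 were lower at day 2. It was at 0.667, 0.862 and 0.785 CPM on L4440 and 1.17, 0.900 and 0.904 CPM on bcat-1 at day 1, and at 1.51, 1.33 and 1.29 CPM and 1.29, 0.977 and 0.867 CPM at day 2. At day 2 the lowest L4440 value, 1.2883 CPM, and the highest value labelled bcat-1, 1.2875 CPM, were almost equal. The log2 difference was 0.37 (SE 0.23) at day 1 and -0.39 (SE 0.22) at day 2. The test of the difference between them, -0.75 (SE 0.32), did not pass (edgeR adjusted p 1 after adjustment over 14567 genes).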

How the results depend on the processing

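The number of members called with age was 29 to 46 with single libraries left out, against 33, and 13 when a fold of 1.5 was tested. On L4440 it was 14, with 7 under upper-quartile factors, 1 for a fold of 1.5 and 3 to 21 with libraries left out, lowest without L4440 day 1 replicate 2 and highest without the library labelled bcat-1 day 2 replicate 3. For bcat-1 it was 25, with 7 for a fold of 1.5, 8 when fitted on the compared groups alone and 12 to 34 with libraries left out, lowest without bcat-1 day 1 replicate 2 and highest without that same library. RNAi calls at day 2 were 0 to 3 with libraries left out, 3 without it. Wide members at day 2 numbered 23, and 47 with a bound of 1. The family had 35 members with a minimum of 5 CPM and 156 with none. The age difference of col-95, 0.14 and not called, was -0.070 to 0.22 with libraries left out and negative without the library labelled bcat-1 day 2 replicate 3. No paired analysis was possible because the labels give no replicate numbers. Of the 29 falling members, 26 kept their call with each of the 12 libraries left out, except col-159, col-150 and col-126, and 12 kept it in all 21 alternatives. The reasons for these changes, beyond fewer samples or a larger tested fold, were not tested. With 3 libraries per group, a member that missed the threshold is not shown to be unchanged.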
